A study of Mus musculus with 15 samples.

Results

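Genes of the insulin and insulin-like growth factor (IGF) receptor pathway were examined in sorted mouse islet cells. They were taken by symbol from the deposited table of FPKM, which counts fragments relative to transcript length and to the mapped reads of the library. The list held 9 genes: the receptors Insr, Igf1r and Igf2r, the receptor substrates Irs1 and Irs2, the phosphoinositide 3-kinase (PI3-kinase) subunit Pik3r1, the kinases Akt1 and Akt2 and the transcription factor Foxo1. Each matched 1 row, so all 9 were found among the 38283 genes of the table. The question was how these genes differ between alpha, beta and delta cells.

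Alpha cells (n = 5) and beta cells (n = 4) were sorted from Glu-Venus mice, in which the proglucagon promoter drives the fluorophore Venus. Alpha cells were collected as Venus-positive cells, and beta cells as Venus-negative cells of high scatter and autofluorescence. Delta cells (n = 6) were sorted from Sst-CreXROSA26EYFP/EYFP mice, in which Cre under the Sst promoter switches on a yellow fluorophore. All mice were C57BL/6 and untreated as far as the labels say, each sample pooled the islets of several mice, and age and sex are not given in the sources used here. Delta cells came from another mouse line than the alpha and beta cells, and for them cell type and line cannot be told apart.

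Insulin and the IGFs act through receptor tyrosine kinases at the cell surface. The active receptor phosphorylates IRS proteins, which recruit PI3-kinase, and the lipid made by this enzyme brings AKT kinases to the membrane, where they are activated. AKT in turn phosphorylates FOXO1 and keeps it out of the nucleus. In beta cells the pathway is known for its role in the growth and survival of the cells, and insulin released within the islet also reaches the receptors of alpha and delta cells.

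The hormone genes matched the labels. Gcg ranged from 184426 to 344947 FPKM in alpha cells and was at most 1817 FPKM elsewhere. Ins2 ranged from 91248 to 638871 FPKM in beta cells and was at most 9094 FPKM elsewhere. Sst ranged from 101492 to 266276 FPKM in delta cells and was at most 2427 FPKM elsewhere. Ppy, the pancreatic polypeptide gene, was at 17728 to 41391 FPKM in alpha and 10857 to 48600 FPKM in delta samples but at 16.9 to 98.1 FPKM in beta samples. Summed FPKM of 7 acinar markers was 8.17 to 79.6 in alpha, 0.0283 to 12.7 in beta and 89.9 to 562 in delta samples. That of 6 immune markers was 7.85 to 27.5 in alpha, 1.35 to 20.9 in beta and 15.9 to 44.8 in delta samples, and the part of either list in the differences of delta cells was not tested. Read totals are not part of the table. The step that 1 read makes in low values could be resolved in 6 samples, giving 7.63 to 30.4 M reads (M, 10 to the power of 6), and the depth of the other 9 is unknown. The libraries also fell into 2 sets by their total over 85 ribosomal protein genes. This total was 65611 to 140979 FPKM in alpha samples 1, 2 and 3, beta sample 2 and delta samples 1 and 2 (the higher set), and 7919 to 38775 FPKM in the other 9 (the lower set). Values of the 2 sets are given below for several genes.

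Irs2 was the only member whose level in beta cells differed from both other cell types at the threshold given below. Irs2 and Irs1 encode the substrates that couple the insulin and IGF1 receptors to PI3-kinase. Irs2 lies on the minus strand of chromosome 8 (chr8:10984681-11008458, GRCm38) with 1 transcript of 6323 nt over 2 exons in GENCODE. The gene 9530052E02Rik overlaps it on the other strand and averaged 0.463 FPKM in alpha, 1.00 in beta and 0.562 in delta cells. The part of 9530052E02Rik in the Irs2 values was not tested. The level of Irs2 was 3.70, 2.23, 1.60, 4.80 and 6.35 FPKM in alpha samples 1 to 5. In beta samples 1 to 4 it was 1.14, 0.779, 0.785 and 0.575 FPKM. Delta samples ranged from 1.12 to 4.68 FPKM with a median of 3.55. Every beta sample was below every alpha sample, and of the 6 delta samples 5 were above all beta samples. The exception was delta sample 2, at 1.12 FPKM.

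Mean Irs2 was 3.74 ± 1.92 FPKM (n = 5, SD) in alpha cells, 0.819 ± 0.234 (n = 4, SD) in beta cells and 3.41 ± 1.30 (n = 6, SD) in delta cells. Differences were tested with limma on log2(FPKM + 1) over the 14405 genes with a mean above 1 FPKM in at least 1 cell type, and an adjusted p (Benjamini-Hochberg over all genes tested) under 0.05 counted as a call. On this scale, beta less alpha cells gave -1.29 for Irs2, the lower level being that of beta cells (SE, the standard error, 0.358, limma adjusted p = 0.0380). Delta cells exceeded beta cells by 1.22 (SE 0.345, limma adjusted p = 0.0256). Between delta and alpha cells the difference was -0.07 (SE 0.324, limma adjusted p = 0.962). In sorted bulk samples, fewer expressing cells and less RNA per cell cannot be told apart. The scale understates fold changes at levels this low: the ratio of mean FPKM was 0.219 for beta to alpha cells and 4.16 for delta to beta cells.

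Both Irs2 calls were close to the threshold. The adjusted p of the difference between beta and alpha cells (limma) ran from 0.00712 to 0.104 over the 23 alternatives and was under 0.05 in 12 of them, and that between delta and beta cells ran from 0.00561 to 0.121 and was under 0.05 in 17. Leaving out alpha sample 1, 4 or 5, beta sample 1, 3 or 4 or delta sample 4 ended the first call for Irs2, with adjusted p between 0.0501 and 0.104 (limma), and leaving out beta sample 4 or delta sample 3 or 5 ended the second, with 0.0511 to 0.0732. Its direction was the same in every alternative run for both comparisons. The Irs2 call between beta and alpha cells was also lost with size factors (-1.12, adjusted p = 0.0623), without a filter (adjusted p = 0.0626) and in a fit of those 2 cell types (adjusted p = 0.0953). With size factors the difference between delta and beta cells fell to 0.92 (limma adjusted p = 0.0954) and with quantile normalization to 0.71 (adjusted p = 0.121). Both Irs2 differences were larger among the 9 samples of the lower ribosomal protein set, where mean Irs2 was 5.57 FPKM over 2 alpha, 0.832 over 3 beta and 3.92 over 4 delta samples. A fit of those 9 samples, chosen after the data were seen, gave -1.84 for beta less alpha cells (limma adjusted p = 0.00852) and 1.42 for delta less beta cells (limma adjusted p = 0.00561). In the higher set the mean was 2.51 FPKM over 3 alpha and 2.40 over 2 delta samples, and the beta sample was at 0.779 FPKM. Ppy was also low in beta cells alone, and its part in the Irs2 difference was not tested.

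The start region of Irs2 is shown because this gene was the only member called against both other cell types. The 300 bases around the RefSeq start (chr8:11008880-11009179, minus strand, GRCm38.p6), which lie upstream of the GENCODE gene, are printed 5′ to 3′, with the letters of an E-box, CACGTG, in capitals.
Irs2: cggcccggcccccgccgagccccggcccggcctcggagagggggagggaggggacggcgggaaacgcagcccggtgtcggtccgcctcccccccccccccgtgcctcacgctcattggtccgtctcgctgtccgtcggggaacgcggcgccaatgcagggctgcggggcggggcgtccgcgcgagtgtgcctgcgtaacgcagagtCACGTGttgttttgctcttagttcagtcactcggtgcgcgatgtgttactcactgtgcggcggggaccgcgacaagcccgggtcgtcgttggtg

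These bases were 72.0% G and C, against a median of 52.7% over 32851 RefSeq start regions of the same length. The E-box letters, which read the same on both strands, occur in 7.15% of those regions. Neither the core of the FoxO site, GTAAACA on either strand (3.65% of regions), nor the cyclic AMP response element, TGACGTCA (1.79%), was found in this window. A match of letters is not evidence of binding, and a missing one says only that the letters are not in this window.

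Irs1 was low in all 3 cell types and did not pass the filter of 1 FPKM, so 8 of the 9 genes were tested. It lies on chromosome 1 (chr1:82233101-82291416, minus strand, GRCm38) and has 1 transcript of 9144 nt. Irs1 was at 0.668, 0.172, 0.765, 0.448 and 0.987 FPKM in alpha samples 1 to 5 and at 1.55, 0.857, 0.690 and 0.778 FPKM in beta samples 1 to 4. In delta cells it ranged from 0.164 to 0.618 FPKM, with a median of 0.278. All delta samples were below all beta samples. In a fit without the filter, the difference between delta and beta cells in Irs1 was -0.57 with an adjusted p of 0.0546 (limma), so it was not called, and those from alpha cells had adjusted p of 0.448 and 0.501. The overlapping gene Gm9747, on the other strand, averaged 0.364 FPKM in alpha, 1.93 in beta and 0.443 in delta cells. Whether the reads were counted by strand is not given in the sources used here, and the part of Gm9747 in the Irs1 values was not tested.

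The relation of the substrates to each other was examined within each library. The log2 ratio of Irs2 to Irs1, each with 1 FPKM added, lay between 0.56 and 2.00 in alpha samples, between -0.25 and 0.08 in beta samples and between 0.86 and 2.29 in delta samples. Beta cells thus had about equal values of both genes, and the other cell types had more Irs2 than Irs1 in every sample. The mean ratio was lower in beta cells than in alpha cells, with a difference of -1.58 (two-sided exact permutation test, p = 0.0159, adjusted p = 0.0476 over 9 comparisons of ratios) and higher in delta than in beta cells by 1.78 (exact permutation test, p = 0.00952, adjusted p = 0.0476). These are the smallest p-values the group sizes allow, and both calls were lost in 9 of 15 tests that left out 1 sample (adjusted p up to 0.107). Each of the 9 left out an alpha or beta sample, which raises the smallest possible p and with it the adjusted p. They cannot show whether the calls are stable. With 0.1 FPKM added in place of 1 the differences were -2.61 and 3.24, so their size depends on the constant. Between delta and alpha cells it differed by 0.20 (exact permutation test, p = 0.545). Within the lower ribosomal protein set beta less alpha was -2.06 and delta less beta 1.93, and within the higher set -1.23 and 1.49.

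**Figure D1:**
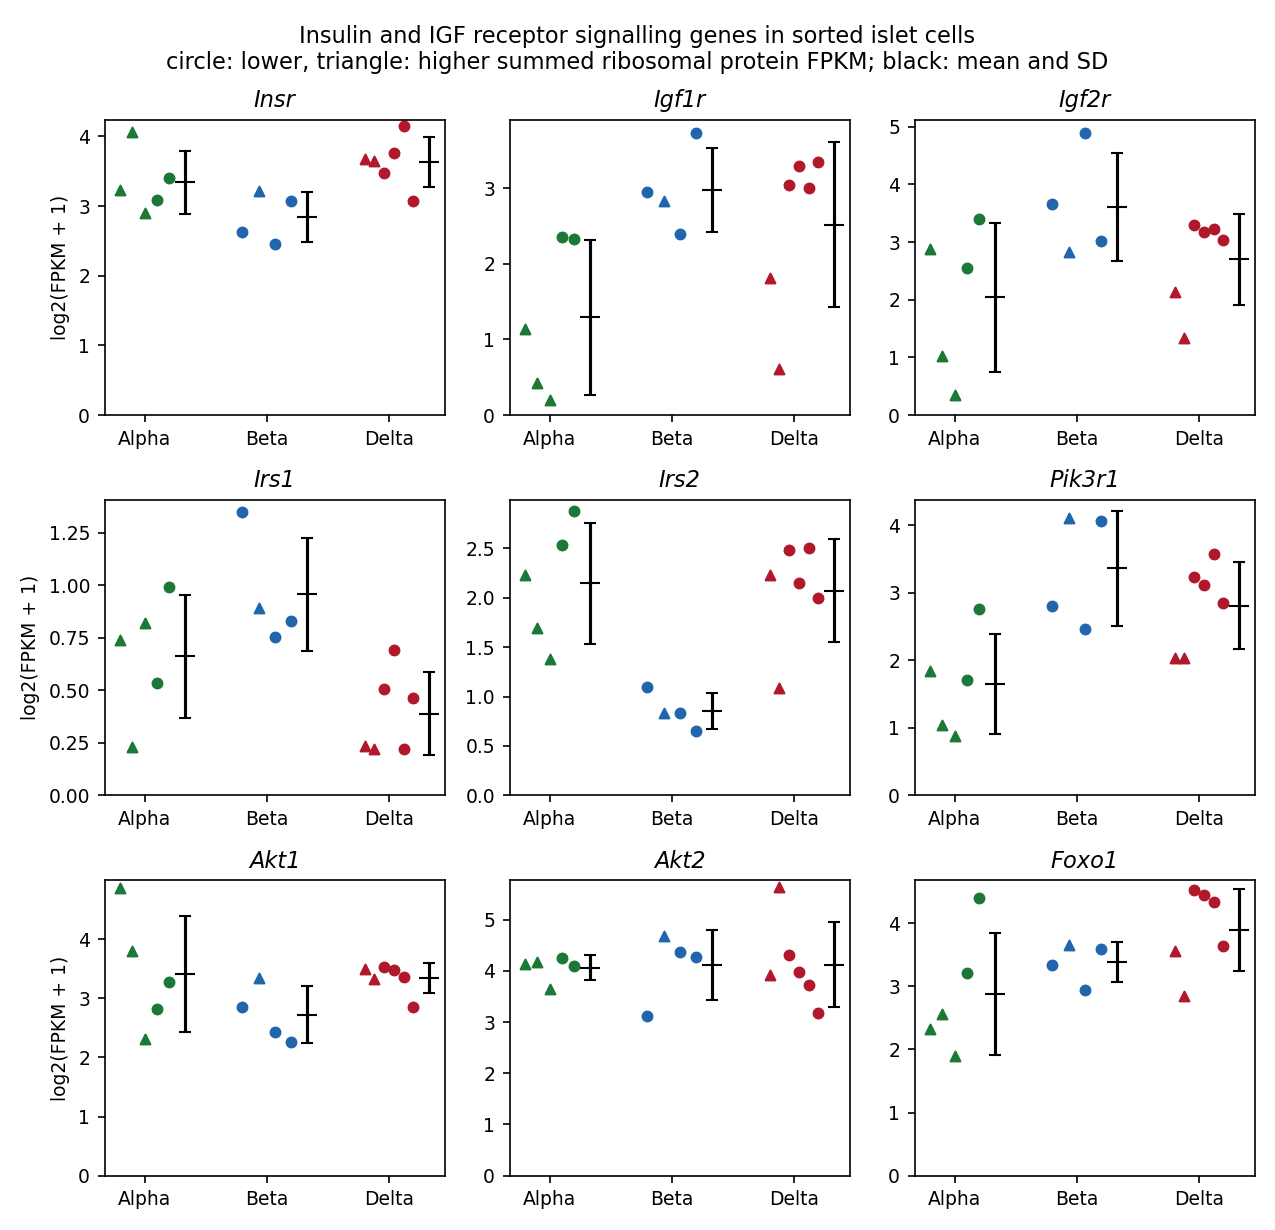
Level of each of the 9 genes as log2(FPKM + 1), by cell type and sample. Circles are the 9 samples of the lower and triangles the 6 samples of the higher ribosomal protein set, and black bars give the mean and SD. Irs2 is lowest in beta cells, where the samples lie between 0.575 and 1.14 FPKM, and the triangles are the lowest points of Igf1r and Foxo1 in alpha and delta cells and of Igf2r and Pik3r1 in delta cells.

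Pik3r1 was higher in beta cells than in alpha cells. Pik3r1 encodes the regulatory subunit of PI3-kinase that binds phosphorylated IRS proteins. Its gene (chr13:101680563-101768217, minus strand, GRCm38) has 7 annotated transcripts, the longest of 7113 nt. Pik3r1 was at 2.59, 1.07, 0.841, 2.28 and 5.78 FPKM in alpha samples 1 to 5. Beta samples 1 to 4 had 6.00, 16.2, 4.54 and 15.8 FPKM. In delta samples the lowest value was 3.09, the median 6.96 and the highest 10.99 FPKM. Alpha sample 5 was the only alpha sample above any beta sample, and the delta samples overlapped both other cell types.

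Mean Pik3r1 was 2.51 ± 1.98 FPKM (n = 5, SD) in alpha, 10.6 ± 6.24 (n = 4, SD) in beta and 6.59 ± 3.11 (n = 6, SD) in delta cells. The beta less alpha difference was 1.71 (SE 0.481, limma adjusted p = 0.0396). The differences between delta and alpha cells (1.16, SE 0.434, limma adjusted p = 0.149) and between delta and beta cells (-0.55, SE 0.463, limma adjusted p = 0.477) were not called. The call rested on samples of both sets. Among the 9 samples of the lower set the difference in Pik3r1 was 0.88 with an adjusted p of 0.364 (limma), where means were 4.03 FPKM over 2 alpha, 8.78 over 3 beta and 8.34 over 4 delta samples. In the higher set they were 1.498 FPKM over 3 alpha and 3.10 over 2 delta samples, and the beta sample was at 16.2 FPKM. With the set as a covariate the difference was 1.503 with an adjusted p of 0.0526. Over all 24 alternatives the adjusted p ran from 0.00652 to 0.364 and was under 0.05 in 10. Leaving out any of alpha samples 1 to 4, beta samples 1, 2 or 4 or delta samples 3, 4 or 6 ended the call for Pik3r1, with adjusted p from 0.0534 to 0.136 (limma).

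RefSeq gives Pik3r1 a pair of start regions far apart in the gene, and the deposited value does not say which was used. They are shown for that reason, as 300 bases each on the minus strand (GRCm38.p6), the upstream one at chr13:101768168-101768467 and the internal one at chr13:101692581-101692880. No motif named above was found in either, so no base is in capitals.
Pik3r1 upstream: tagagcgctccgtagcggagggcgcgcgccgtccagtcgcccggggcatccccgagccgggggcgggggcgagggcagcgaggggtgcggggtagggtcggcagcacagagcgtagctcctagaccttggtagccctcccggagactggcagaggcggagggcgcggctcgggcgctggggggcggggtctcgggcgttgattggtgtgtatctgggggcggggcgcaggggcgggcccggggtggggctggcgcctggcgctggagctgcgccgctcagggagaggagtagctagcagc
Pik3r1 internal: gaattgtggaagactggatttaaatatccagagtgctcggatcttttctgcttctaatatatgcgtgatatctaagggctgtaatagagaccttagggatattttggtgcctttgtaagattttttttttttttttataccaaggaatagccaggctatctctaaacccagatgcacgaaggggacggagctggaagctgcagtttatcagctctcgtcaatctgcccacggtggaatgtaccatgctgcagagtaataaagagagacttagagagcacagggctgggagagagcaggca

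The upstream region was 75.7% G and C and the internal one 43.7%. Over all 9 genes, 8 had an entry among the start regions, 13 regions in all. Of these, 3 held the E-box letters, 1 held the FoxO core and 0 held the cyclic AMP response element.

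The receptors were present in all 3 cell types, and none was called in any comparison of this fit. Insr, the insulin receptor (chr8:3122061-3279617, minus strand, longest transcript 9355 nt), was at 8.40, 15.8, 6.45, 7.49 and 9.62 FPKM in alpha samples 1 to 5 and at 5.18, 8.27, 4.47 and 7.44 FPKM in beta samples 1 to 4. In delta samples it ranged from 7.42 to 16.8 FPKM around a median of 11.6. Delta cells had the highest mean, at 11.7 ± 3.10 FPKM (n = 6, SD), followed by alpha cells at 9.55 ± 3.67 (n = 5, SD) and beta cells at 6.34 ± 1.80 (n = 4, SD). The samples of neighbouring cell types in this order overlapped. The difference between delta and beta cells in Insr was 0.79 (SE 0.314, limma adjusted p = 0.108), and the adjusted p stayed between 0.0603 and 0.276 in all 24 alternatives.

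Igf1r encodes the receptor that binds IGF1 and IGF2 (chr7:67952827-68233668, plus strand, longest transcript 11409 nt). In alpha samples 1 to 5 it was at 1.21, 0.342, 0.152, 4.12 and 4.02 FPKM. Beta samples 1 to 4 were at 6.70, 6.13, 4.24 and 12.3 FPKM, all above the alpha samples. In delta samples it ranged from 0.532 to 9.13 FPKM with a median of 7.13. The difference in Igf1r between beta and alpha cells was 1.68 (SE 0.598, limma adjusted p = 0.0996), and those of delta cells from alpha cells (1.23, adjusted p = 0.247) and from beta cells (-0.46, adjusted p = 0.651) were smaller.

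The spread of Igf1r went with the sets of libraries. In alpha cells the 3 samples of the higher set were at 0.152 to 1.21 FPKM and the other 2 at 4.02 and 4.12 FPKM, and in delta cells the samples of the higher set were at 0.532 and 2.51 FPKM and the others between 7.04 and 9.13 FPKM. The mean log2 level was higher in the lower than in the higher set by 1.75 in alpha and 1.96 in delta cells for Igf1r, by 1.56 and 1.45 for Igf2r and by 1.55 and 1.03 for Foxo1. For the called members these differences were 0.98 and 1.16 (Pik3r1) and 0.94 and 0.63 (Irs2). For Insr, whose longest transcript is of similar length, they were -0.15 in alpha and -0.04 in delta cells. In beta cells, with 1 sample in the higher set, the pattern was mixed. The differences there were 0.19 for Igf1r, 1.03 for Igf2r, -0.36 for Foxo1, -0.99 for Pik3r1, 0.03 for Irs2 and -0.49 for Insr. A fit with the set as a covariate takes the same shift in all cell types. Over the 4667 genes with the longest transcripts (3946 nt or more) the median difference between sets was 0.25 in alpha and 0.28 in delta cells, and over the 4668 genes with the shortest (2010 nt or less) -0.25 and -0.40. The part of transcript length in the differences of the members was not tested. With the set as a covariate the difference in Igf1r between beta and alpha cells was 1.17 (limma adjusted p = 0.0851), and among the 9 samples of the lower set it was 0.68 (adjusted p = 0.330).

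Igf2r, the mannose 6-phosphate receptor that takes IGF2 to lysosomes (chr17:12682406-12769664, minus strand, longest transcript 8887 nt in 48 exons), was at 6.33, 1.04, 0.271, 4.86 and 9.59 FPKM in alpha samples 1 to 5. In beta samples 1 to 4 it was at 11.7, 6.11, 28.8 and 7.14 FPKM. Delta samples ranged from 1.53 to 8.86 FPKM with a median of 7.62. The beta mean of 13.4 ± 10.5 FPKM (n = 4, SD) was the highest, with beta sample 3 above all other samples, and the cell types overlapped. The difference in Igf2r between beta and alpha cells was 1.56 (SE 0.634, limma adjusted p = 0.148). The imprinted antisense gene Airn overlaps Igf2r and was at 3.38 to 32.4 FPKM in alpha, 2.89 to 15.05 in beta and 2.96 to 17.2 in delta samples. Its share in the Igf2r values was not tested.

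Within libraries, the log2 ratio of Insr to Igf1r (each with 1 FPKM added) lay between 0.73 and 3.64 in alpha, between -0.65 and 0.38 in beta and between -0.27 and 3.03 in delta samples. All beta samples were below all alpha samples. The beta less alpha difference was -2.18 (exact permutation test, p = 0.0159, adjusted p = 0.0476), and between delta and beta cells it was 1.24 (exact permutation test, p = 0.0476, adjusted p = 0.107). The p of beta less alpha is the smallest the group sizes allow, and the call was lost in 9 of 15 tests that left out 1 sample. Each of the 9 left out an alpha or beta sample, which raises the smallest possible p. They cannot show whether the call is stable. Among alpha samples, those of the higher set had the highest ratios. Among samples of the lower set the beta less alpha difference was -1.21, and among those of the higher set -2.43 with 1 beta sample.

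**Figure D2:**
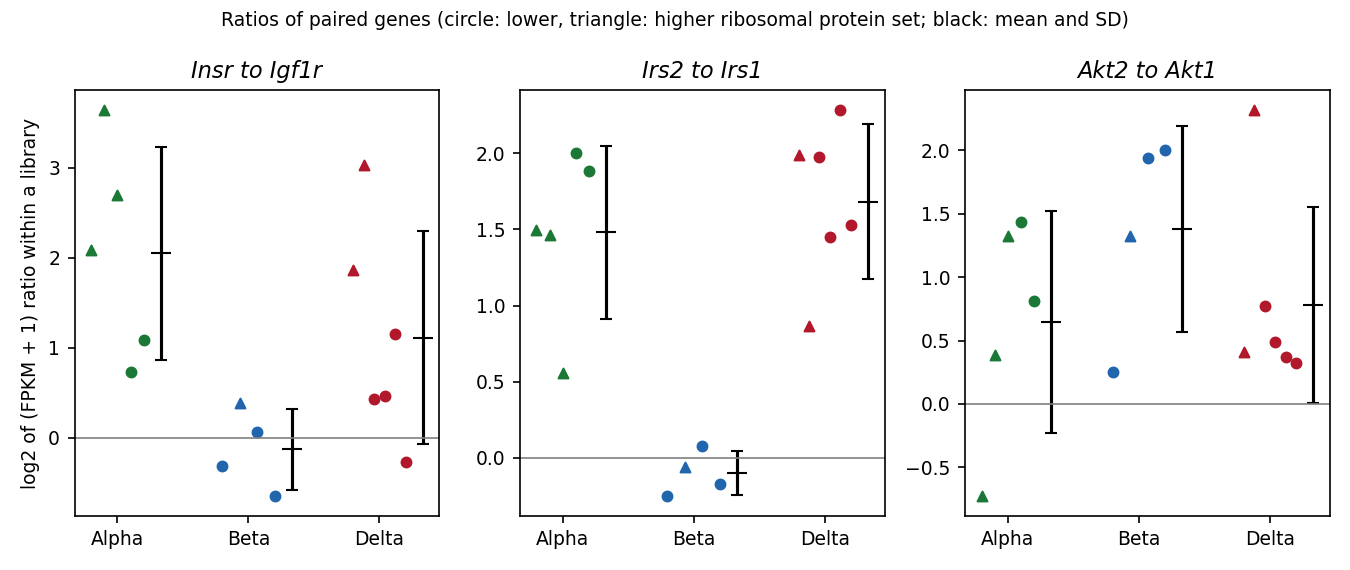
Log2 ratios of paired genes within each library, after adding 1 FPKM to both, for Insr to Igf1r, Irs2 to Irs1 and Akt2 to Akt1. Circles and triangles mark the lower and higher ribosomal protein sets, and black bars give the mean and SD. The beta samples of the Irs2 to Irs1 ratio lie between -0.25 and 0.08, below all other samples.

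The AKT kinases carry the signal from PI3-kinase to its targets. Akt1 (chr12:112653821-112674884, minus strand) was at 28.2, 12.9, 3.97, 6.08 and 8.73 FPKM in alpha samples 1 to 5 and at 6.26, 9.18, 4.39 and 3.81 FPKM in beta samples 1 to 4. Delta samples had 6.20 to 10.6 FPKM with a median of 9.72. Akt2 (chr7:27591552-27640826, plus strand), the form known for its part in glucose uptake, was at 16.6, 17.1, 11.4, 18.1 and 16.1 FPKM in alpha and at 7.66, 24.5, 19.7 and 18.3 FPKM in beta samples. In delta samples it ranged from 8.003 to 49.1 FPKM with a median of 14.4. The cell types overlapped in both genes. Akt1 in alpha cells averaged 7.41 FPKM in the lower and 15.01 FPKM in the higher set, and Akt2 in delta cells 13.5 and 31.6 FPKM.

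The largest of the differences in Akt1 was -0.69 between beta and alpha cells (SE 0.437, limma adjusted p = 0.366). For Akt2 all 3 differences were between 0.02 and 0.06, with standard errors of 0.409 to 0.454 and adjusted p of 0.976 to 0.998 (limma). A missing call does not show equal levels, and the sign of both Akt2 differences of delta cells turned with the scaling of the libraries. The log2 ratio of Akt2 to Akt1 ranged from -0.73 to 1.43 in alpha, from 0.25 to 2.00 in beta and from 0.32 to 2.32 in delta samples, and no difference between cell types was called (exact permutation tests, p = 0.238 to 0.788).

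Foxo1, which AKT phosphorylates, lies on the plus strand of chromosome 3 (chr3:52268336-52353221, 1 transcript of 8665 nt in 3 exons). It was at 3.98, 4.92, 2.71, 8.29 and 19.99 FPKM in alpha samples 1 to 5 and at 9.11, 11.6, 6.71 and 11.02 FPKM in beta samples 1 to 4. Delta samples ranged from 6.21 to 22 FPKM with a median of 15.3. By mean the order was delta (15.05 ± 6.41 FPKM, n = 6, SD), beta (9.61 ± 2.21, n = 4, SD) and alpha cells (7.98 ± 7.03, n = 5, SD), and neighbours in this order overlapped. The difference in Foxo1 between delta and alpha cells was 1.01 (SE 0.435, limma adjusted p = 0.231), and it passed the threshold only without alpha sample 5 (1.39, adjusted p = 0.0341). The beta less alpha difference was 0.50 (adjusted p = 0.566). The order of beta and alpha cells turned with the set of libraries: the means were 8.95 and 14.1 FPKM in the lower set, where the difference in Foxo1 was -0.51, and 11.6 (1 sample) and 3.87 FPKM in the higher set.

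**Figure D3:**
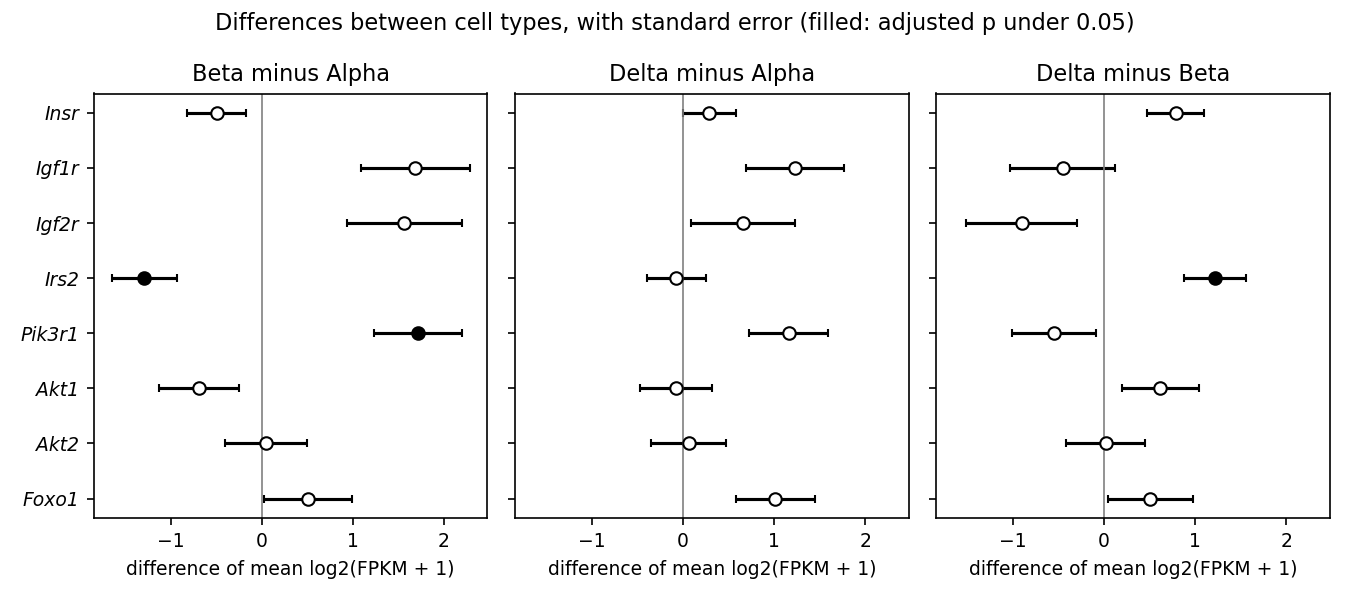
Differences of mean log2(FPKM + 1) between cell types for the 8 genes tested, with standard errors. Filled points had an adjusted p under 0.05 (limma). They are Irs2 and Pik3r1 for beta minus alpha cells and Irs2 for delta minus beta cells.

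Counted over the 8 genes tested, 2 passed the F-test across cell types (Irs2, adjusted p = 0.0295, and Pik3r1, adjusted p = 0.0450, limma), while 16.0% of all 14405 genes did. Between beta and alpha cells 2 of the 8 were called against 7.66% of all genes: Pik3r1 was higher in beta cells, where 2.84% of all genes were, and Irs2 was lower, where 4.82% were. The median difference of the 8 was 0.28 and that of all genes -0.13. Between delta and alpha cells 0 of the 8 were called, with 3 at an unadjusted p under 0.05 (Igf1r, Pik3r1 and Foxo1, limma), as were 2411 of all 14405. In that comparison 6.81% of all genes were called, 5.33% as higher and 1.48% as lower in delta cells, and the medians were 0.48 for the 8 genes and 0.13 for all. Between delta and beta cells Irs2 alone was called, as higher in delta cells. There, 14.7% of all genes were called, 11.7% higher and 2.99% lower, and the medians were 0.26 and 0.30. The fit without a filter, which also tests Irs1, called 0 of the 9 between beta and alpha or delta and alpha cells (4 and 3 at an unadjusted p under 0.05, limma). It called 1 between delta and beta cells and 1 across cell types. Of all 23792 genes in that fit, 969, 1121, 2160 and 2398 were called in these 4 tests. In the first 2, 3981 and 3464 of all genes had an unadjusted p under 0.05 (limma). Division by median-ratio size factors moved the medians of all genes to 0.00, 0.01 and 0.02 and those of the 8 to 0.51, 0.33 and -0.13.

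The genes most like the called members over the 15 samples were named by their Pearson correlation of log2(FPKM + 1), as a description across samples that share cell types and library sets. For Irs2 they were Cacnb3 (r = 0.960), Tubb4a (0.952) and Ptprk (0.944). Cacnb3, a calcium channel auxiliary subunit, averaged 11.7 FPKM in alpha, 2.07 in beta and 10.6 in delta cells. Ptprk, a receptor tyrosine phosphatase, averaged 5.93, 0.0582 and 5.82 FPKM in the same order. For Pik3r1 they were Scg2 (0.957), Epb4.1l3 (0.947) and Sorbs2 (0.939). Scg2, a granin of secretory granules, averaged 162 FPKM in alpha, 1507 in beta and 721 in delta cells.

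A wider list of 77 pathway genes, ordered by role, was examined in the same fit. All 77 were in the table and 63 passed the filter. Of the 63, 14 passed the F-test across cell types, which 16.0% of all genes did. In the pairwise tests of the 63, beta cells had 2 higher and 4 lower than alpha cells (7.66% of all genes were called). Delta cells had 5 higher and 3 lower than alpha cells (6.81% of all genes), and 9 higher and 2 lower than beta cells (14.7% of all genes). The split changed with the scaling. With size factors it was 6 higher and 4 lower, 2 and 3, and 7 and 5 in these 3 comparisons. With quantile normalization it was 6 and 5, 2 and 3, and 8 and 7. Over all 14405 genes the split changed as well, from 409 and 695, 768 and 213, and 1683 and 431. It became 1092 and 983, 723 and 344, and 1379 and 1296 with size factors. With quantile normalization it was 937 and 1033, 618 and 470, and 1397 and 1348. The median differences of the list were -0.01, 0.27 and 0.32, against 0.09, 0.02 and -0.02 with quantile normalization.

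Among ligands and receptors, Insrr changed most. Insrr, the insulin receptor-related receptor, is the orphan member of the receptor family and does not bind insulin. It was at 3.12 ± 1.44 FPKM (n = 5, SD) in alpha, 41.6 ± 18.6 (n = 4, SD) in beta and 16.1 ± 8.98 (n = 6, SD) in delta cells. All alpha samples, at 0.776 to 4.70 FPKM, were below all beta (14.6 to 56.7) and delta samples (4.99 to 30.7), and the delta samples were at 13.9 to 30.7 FPKM in the lower and 4.99 to 9.23 FPKM in the higher set. Insrr was higher than in alpha cells by 3.31 in beta cells (SE 0.519, limma adjusted p = 0.000698) and by 1.96 in delta cells (SE 0.468, adjusted p = 0.0150). The first call held in all 24 alternatives and the second in 20. Igf1 was listed at 0 in 14 of the 15 samples, and at 0.598 FPKM in 1 delta sample. Igf2, which lies beside Ins2, averaged 1.03 FPKM in alpha, 4.05 in beta and 1.58 in delta cells, and no difference was called (lowest adjusted p = 0.0637, limma, beta against alpha cells).

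Of the 8 IGF-binding protein genes 4 were tested, and 3 passed the F-test, against 16.0% of all genes. Igfbp7 was at 201 ± 52.2 FPKM (n = 6, SD) in delta and 26.5 ± 8.74 (n = 4, SD) in beta cells, a difference of 2.89 (limma adjusted p = 0.00273). Its alpha samples were at 141 and 284 FPKM in the lower set and at 21.1 to 53 FPKM in the higher set. Igfals, the subunit that holds IGFs in a ternary complex in blood, was lower in delta cells (0.416 FPKM) than in alpha (4.53) and beta cells (4.20), with a difference of -1.76 (adjusted p = 0.00982) and -1.74 (limma adjusted p = 0.01005). Igfbp5 was higher in delta cells than in alpha cells by 1.77 (adjusted p = 0.0270), and its delta samples were at 3.95 to 7.45 FPKM in the lower and 1.20 to 1.57 FPKM in the higher set. The Igfbp5 call held in 12 of 23 alternatives and was lost without alpha sample 1, 2, 3 or 4 or delta sample 3, 4, 5 or 6. Igfbp7 is also made by endothelial cells, and the 6 endothelial markers summed to 2.96 to 6.17 FPKM in delta, 0.619 to 3.34 in beta and 1.47 to 2.88 in alpha samples.

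The adaptors Gab1 and Sh2b1 had the pattern of Irs2. Gab1, a docking protein that binds PI3-kinase, was at 5.09 ± 2.55 FPKM (n = 5, SD) in alpha, 0.441 ± 0.503 (n = 4, SD) in beta and 5.98 ± 2.08 (n = 6, SD) in delta cells. It was lower in beta cells than in alpha cells, with a difference of -2.02 (limma adjusted p = 0.00381) and higher in delta than in beta cells by 2.28 (adjusted p = 0.000600). Sh2b1, an adaptor that binds the activated insulin receptor, was at 2.52 ± 0.557 FPKM (n = 5, SD), 0.777 ± 0.0673 (n = 4, SD) and 3.03 ± 0.188 (n = 6, SD), with differences of -0.97 (adjusted p = 0.0152) and 1.18 (adjusted p = 0.00159). For both genes every beta sample was below every alpha and delta sample.

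Of 6 receptor inhibitors tested, 2 passed the F-test, as did 16.0% of all genes. Grb10, an imprinted adaptor that restrains insulin and IGF1 receptors, was at 42.6 ± 19.8 FPKM (n = 5, SD) in alpha, 7.55 ± 6.15 (n = 4, SD) in beta and 5.48 ± 1.80 (n = 6, SD) in delta cells. It was lower than in alpha cells, with a difference of -2.42 in beta (limma adjusted p = 0.0168) and -2.56 in delta cells (adjusted p = 0.00460). The call in beta cells held in 21 of 24 alternatives, and the losses include those without beta sample 1 and in a fit of alpha and beta cells alone. The related Grb14 was higher in delta (20.1 FPKM) than in beta cells (5.23 FPKM) by 1.73 (adjusted p = 0.00763). Grb10 samples of alpha and beta cells overlapped, while those of alpha and delta cells did not.

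Among PI3-kinase genes and lipid phosphatases, Inppl1, which encodes the phosphatase SHIP2, was higher in delta cells than in alpha cells by 1.08 (limma adjusted p = 0.0379) and than in beta cells by 1.39 (adjusted p = 0.00780). For Inppl1 the first call held in 9 of 24 alternatives and was lost without alpha sample 1, 2 or 3 or delta sample 1, 3, 4, 5 or 6, and the second held in 23. Pik3c2a, a class II kinase, was lower in delta cells than in beta cells, with a difference of -1.86 (adjusted p = 0.0164). This call held in 21 of 24 alternatives, and the losses include those without beta sample 4 and in the 9 samples of the lower set. The catalytic subunit gene Pik3ca did not pass the F-test (adjusted p = 0.0643) and is named because a pairwise test called it. It was higher in beta (7.46 FPKM) than in alpha cells (1.88 FPKM) by 1.49 (adjusted p = 0.0496), a call that held in 6 of 24 alternatives and was lost without any one of 13 of the 15 samples. Of the 6 genes grouped with Akt kinase and its regulators and the 13 of the mTORC1 arm, 0 passed the F-test (limma; 0 and 1 at an unadjusted p under 0.05), which 16.0% of all genes passed, and with so few genes this does not set the groups apart.

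Downstream, Foxo6 was higher in delta (4.05 FPKM) than in alpha (1.18) and beta cells (0.709), by 1.28 (limma adjusted p = 0.0302) and 1.5 (adjusted p = 0.0106). For Foxo6 the first call held in 12 of 23 alternatives and was lost without alpha sample 1, 2 or 3 or delta sample 3, 5 or 6, and the second held in 22. Gsk3a did not pass the F-test (adjusted p = 0.0505) and is named because a pairwise test called it. It was higher in delta cells than in beta cells by 1.31 (adjusted p = 0.0230), which was not called without beta sample 3 or 4 or with size factors. Of 7 known FoxO targets tested 2 passed the F-test, against 16.0% of all genes. Pdk4, an inhibitory kinase of pyruvate dehydrogenase, was at 110 ± 34.8 FPKM (n = 5, SD) in alpha cells and at 0.0674 and 0.305 FPKM on average in beta and delta cells, with differences of -6.64 (adjusted p = 2.56e-09) and -6.39 (adjusted p = 9.62e-10). Its alpha samples were at 143 to 150.4 FPKM in the lower and 70.4 to 96.1 FPKM in the higher set. Bcl6, a transcriptional repressor, was at 23.1 ± 12.9 FPKM (n = 6, SD) in delta cells and at 1.29 and 0.851 FPKM in alpha and beta cells, with differences of 3.44 (adjusted p = 7.43e-05) and 3.52 (adjusted p = 9.27e-05). Foxo1 itself was not called in any of these comparisons.

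**Figure D4:**
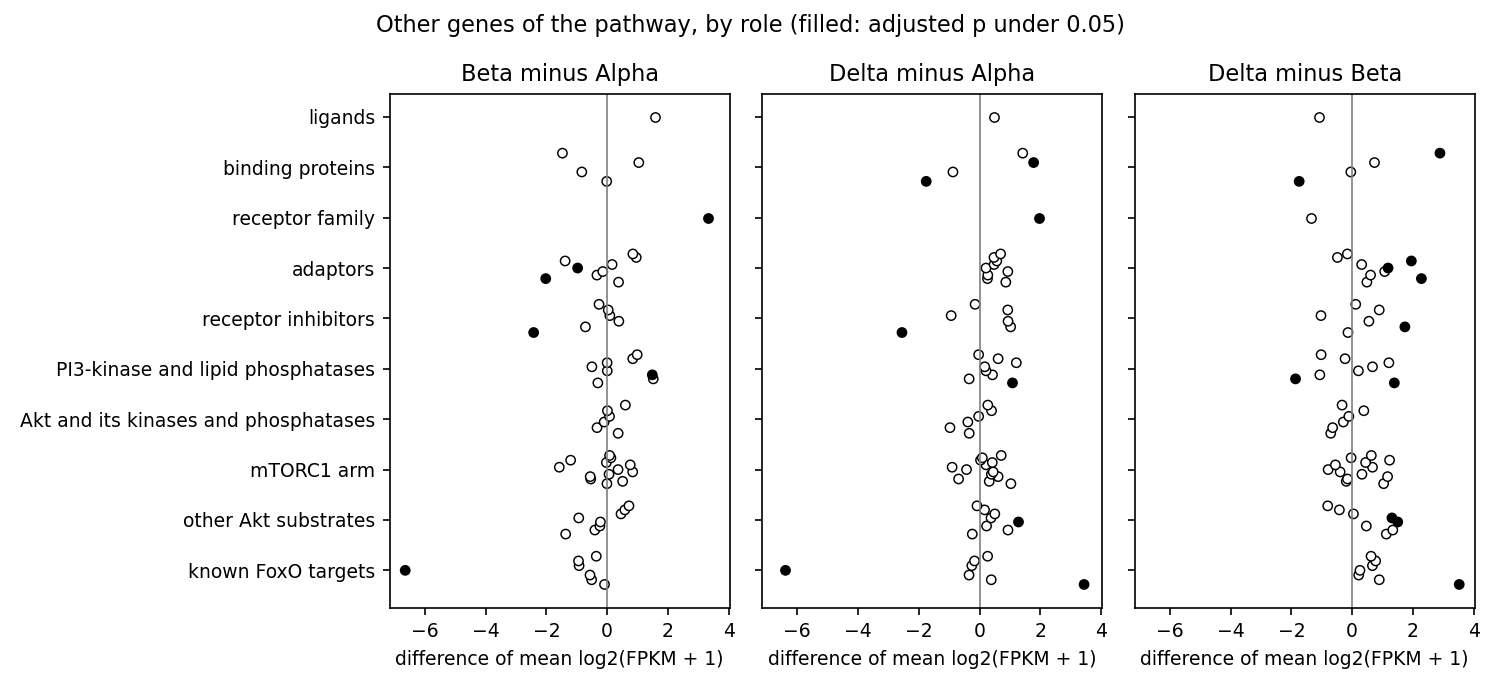
Differences of mean log2(FPKM + 1) for the 63 other pathway genes tested, grouped by role, with 1 point per gene. Filled points had an adjusted p under 0.05 (limma). The farthest points are Pdk4 at -6.64 and -6.39 and Bcl6 at 3.44 and 3.52, while the Akt group and the mTORC1 arm hold no filled point.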

How the data were processed

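RNA of sorted alpha, beta and delta cells was amplified (NuGEN Ovation) and sequenced. The authors aligned reads to GRCm38 with TopHat (the submitters' notes give version 2.0.8) and deposited gene-level FPKM made with Cufflinks 2.2.1. The annotation release and any scaling between libraries are not given in the sources used here. The study's methods name a test for counts (edgeR), which FPKM do not allow, so differences were tested with limma 3.58.1 in R 4.3.3 (lmFit, eBayes with trend) on log2(FPKM + 1), with 15 samples in one fit, no covariate and genes above a mean of 1 FPKM in a cell type. Ratios were tested with SciPy 1.17.1 (Python 3.11.15). The fit was tested on simulated data. The members and lists were chosen with earlier results of these data known. Genes were named by rule: the members, the hormone genes, up to 3 pathway genes per role by largest difference among those past the F-test, Igf2 for a role with no call, and the 3 genes most correlated with each called member. Coordinates are from GENCODE M21 and start regions from RefSeq (GRCm38.p6). The limit of 50000 FPKM between library sets was known from earlier results. The p-values measure the spread between pools of mice, with alpha and beta samples taken as unpaired. No 2 sample columns were identical, and all value columns were mapped to samples. Alternatives were a pseudocount of 0.1, no filter or a minimum of 5 FPKM, size factors, quantile normalization, fits of 2 cell types, the library set, a replicate block and leaving out samples. A fit of the lower set was added after the data were seen. Of the other marker lists, the ductal list summed to 2.81 to 20.3 FPKM, the glia list summed to at most 1.35 FPKM and the fibroblast list to at most 3.81 FPKM in any sample. Some genes that the rule names are not reported here.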

Additional observations from a re-analysis of the deposited data

Results flagged for a closer look

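Among 36 groups of samples examined (9 genes and 3 ratios in 3 cell types), 4 held a sample far from the others, where chance gives about 1.8. Irs2 in delta sample 2 was at 1.08 on the log2(FPKM + 1) scale, and the other delta samples lay between 1.99 and 2.51. In the same sample the log2 ratio of Akt2 to Akt1 was 2.32, against 0.32 to 0.77 in the other delta samples. Delta sample 2 is in the higher ribosomal protein set. Akt1 in delta sample 6 was at 2.85 on the log2 scale, below the 3.33 to 3.54 of the others. Akt2 in alpha sample 3 was at 3.64, below 4.09 to 4.26.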

How the results depend on the processing

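The depth of 9 libraries is unknown, so no counting error could be given, and mean Irs1 in all cell types and mean Irs2 in beta cells were under 1 FPKM. No alternative reversed Irs2 between beta and alpha or between delta and beta cells, and the cause of each change below was not tested. Over all genes, the calls between beta and alpha cells numbered 2075 with size factors, 1970 with quantile normalization and 520 in a fit of 2 cell types, against 1104. With a minimum of 5 FPKM, which leaves fewer genes and not Irs2, they numbered 518 between delta and alpha, 1319 between delta and beta and 1450 across cell types. Higher and lower calls were 1092 and 983 between beta and alpha cells with size factors (937 and 1033 with quantile normalization, 224 and 1330 in the 9 samples of the lower set), 723 and 344 between delta and alpha cells (618 and 470, 533 and 238), and 1379 and 1296 between delta and beta cells (1397 and 1348, 2874 and 285). Of the members, 0 were called between beta and alpha cells without a filter and in the fit of 2 cell types (limma), and 1 with a minimum of 5 FPKM, size factors, the set as covariate or the 9 samples. Between delta and beta cells 0 were called with a minimum of 5 FPKM, size factors, quantile normalization or the replicate block (limma), where Irs2 had 0.92 (adjusted p = 0.0954) with size factors and 0.71 (adjusted p = 0.121) with quantile normalization. Across cell types 1 was called without a filter, with a minimum of 5 FPKM, size factors, quantile normalization, the covariate or the 9 samples. The wider list had 10, 11 and 10 calls between beta and alpha cells with size factors, quantile normalization and the 9 samples, 4, 5, 5, 4 and 4 between delta and alpha cells with a minimum of 5 FPKM, size factors, quantile normalization, the block and the 9 samples, and 20 between delta and beta cells with the 9 samples. In the 9 samples the sign turned for Igf1r (0.15) and Pik3r1 (0.083) between delta and beta cells, Akt1 between delta and alpha cells (0.25), Akt2 in all 3 comparisons (beta less alpha -0.26, delta less alpha -0.38, delta less beta -0.12) and Foxo1 between beta and alpha cells (-0.51). Akt1 between delta and alpha cells turned to 0.048 with the covariate and 0.026 with the block. Akt2 turned to -0.024 between beta and alpha cells with the block, to -0.10 and -0.063 between delta and alpha cells with size factors and quantile normalization, and to -0.39, -0.18 and -0.026 between delta and beta cells with these and the covariate. Within the lower set the ratio of Insr to Igf1r, beta less alpha, was -1.21 and that of Irs2 to Irs1 -2.06, and Akt2 to Akt1, delta less alpha, was -0.63 in the lower and 1.04 in the higher set, of opposite sign. Irs2 to Irs1, delta less alpha, was -0.13 in the lower and 0.25 in the higher set.

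With single samples left out, calls over all genes ranged from 698 (without beta sample 4) to 1743 (without beta sample 2) between beta and alpha cells, 849 to 1195 between delta and alpha cells, 1499 to 2703 between delta and beta cells and 1786 to 2962 across cell types. Calls of members ranged from 0 to 2, 0 to 1, 0 to 1 and 0 to 3, and those of the wider list from 4 to 8, 5 to 10, 11 to 13 and 12 to 17. Differences ranged from -0.26 to 0.13 for Irs2, -0.35 to 0.29 for Akt1 and -0.24 to 0.25 for Akt2 between delta and alpha cells. Akt2 ranged from -0.14 to 0.38 between beta and alpha and from -0.31 to 0.21 between delta and beta cells. Irs2 ranged from -1.48 to -1.11 between beta and alpha and from 1.13 to 1.42 between delta and beta cells, and Pik3r1 from 1.47 to 2.01 between beta and alpha cells. The ratio of Insr to Igf1r ranged from -2.51 to -1.78 (beta less alpha) and from 0.86 to 1.52 (delta less beta), that of Irs2 to Irs1 from -1.81 to -1.45, -0.030 to 0.36 (delta less alpha) and 1.66 to 1.95, and that of Akt2 to Akt1 from -0.21 to 0.33 (delta less alpha). The 3 called differences in ratio each lost the call in 9 of 15 such exact tests, with adjusted p up to 0.107, where smaller groups raise the smallest p.

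Replicate numbers gave no clear pairing of the samples: of 13 same-numbered pairs, 5 had a correlation of deviations over 0.1. The mean was 0.08, against -0.02 for pairs of other numbers. Alpha and beta cells both came from Glu-Venus mice, and their same-numbered pairs had -0.04, 0.27, -0.15 and 0.07 (samples 1 to 4). Whether alpha and beta samples shared pools of mice, under these or other numbers, is not given in the sources used here. The replicate block changed the count of calls over all genes between beta and alpha cells from 1104 to 1227. With it, Irs2 had -1.15 (adjusted p = 0.0638) between beta and alpha and 1.09 (adjusted p = 0.0576) between delta and beta cells, and Igf1r had 1.89 between beta and alpha cells (adjusted p = 0.0295, limma). The block also ended the calls of Insrr, Igfbp5, Inppl1 and Foxo6 between delta and alpha cells. Those of Grb10 between beta and alpha cells and of Pik3c2a between delta and beta cells were lost with it too.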
